A study of Mus musculus with 40 samples.

Results

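Complement and coagulation genes of the liver were taken from a list of 40 names, of which 39 met the rule and are described here. The rule kept genes carried under a listed name in the count tables of both genotypes with at least 1 CPM (counts scaled to library size) in at least 5 of 40 mice. It gave 20 complement and 19 coagulation genes among 12942 genes tested. The other listed gene, Klkb1 (plasma prekallikrein, a protease of the contact system), was named Klkb1 in the table of one genotype and Gm45753 in that of the other. In GENCODE M21 that record overlaps exons of both Cyp4v3 and Klkb1, so its values of 3.24 to 14.5 CPM in wildtype and 3.39 to 17.1 CPM in knockout mice are uncertain and enter no count below.

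Complement is a system of plasma proteins that marks microbes and dying cells for removal. Antibody, surface sugars and spontaneous turnover start the classical, lectin and alternative pathways, which meet at C3 and end in the membrane attack complex. Coagulation is a chain of serine proteases and cofactors that ends when thrombin converts fibrinogen to fibrin, and plasmin later dissolves the clot. Hepatocytes make most of these proteins, and several, C3 and fibrinogen among them, are acute phase proteins made in larger amounts during inflammation.

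The livers came from 40 male C57BL6/J mice aged 5 months, with 5 mice in each of 8 groups. Of the 8 groups, 4 were wildtype (WT) and 4 carried a liver-specific deletion of PPARγ (KO), made with loxP sites in PPARγ and Cre under the albumin promoter. The WT mice are given as C57BL6/J, and no floxed littermates without Cre or mice with Cre alone are among the groups. Each genotype had a control diet group, a group given pioglitazone (Pio, a thiazolidinedione agonist of PPARγ) in that diet, a high-fat diet (HFD) group and a group on HFD with Pio (HFD-Pio), fed for 3 months from the age of 2 months. Pio made up 0.01% of the diet and 60% of the HFD's calories came from fat. The comparisons ask how the drug and the diet move these genes within a genotype. Since each genotype came in its own count table, a difference between genotypes cannot be told apart from one between tables, and levels are not tested between genotypes.

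WT libraries held 15788242 to 49857017 counts and KO libraries 21542958 to 28334251. Pparg itself was at 5.79 to 14.2 CPM in WT and 3.01 to 9.9 CPM in KO mice, ranges that overlap, and gene totals do not resolve the deleted stretch. The 6 hepatocyte markers summed to at least 31262 CPM in every library and none was at 0. In bulk liver, fewer cells of a type and less RNA per cell cannot be told apart. KO Pio mouse 13 stood apart: its median gene lay 1.41 log2 units from the median of its group, against 0.103 to 0.431 in the other libraries. Its deviations rose with the GC content of the gene (Spearman 0.54 over 12942 genes, 0.71 over the 39 members, both across genes of 1 library). In the other libraries that correlation over all genes ran from -0.41 (WT HFD mouse 826) to 0.34 (WT HFD mouse 829). The hepatocyte markers of mouse 13 summed to 31262 CPM against 87500 to 120479 in the other 4 mice. Among them Alb (10663 against 70731 to 97369 CPM), Ttr, Tat, Asgr1 and Serpina1a were lower, but Apoa1 was higher (18104 against 7263 to 12572 CPM). KO HFD mouse 9 had 26 of the 39 members above all other mice of its group, with a sum of 13 acute phase genes of 74283 CPM against 6511 to 10423. After mouse 13, the largest median distances of a library from its group were those of WT HFD mouse 829 (0.431), WT control mouse 832 (0.403) and WT Pio mouse 845 (0.329). Mouse 832 had 31 members below all others of its group, and mice 829 and 845 each had 18, beside 21 in KO control mouse 2 and 19 in KO HFD mouse 6, whose distances were 0.125 and 0.12. The part of these differences in the results was not tested, and results are given with and without the mice they rest on.

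Per kilobase of exon, C3, the common hub of the complement pathways, had the highest level of the 40 listed genes, with a median of 1847 CPM per kb over the 40 mice. The 3 fibrinogen chains followed, Fga at 1675, Fgg at 1477 and Fgb at 1436 CPM per kb, and then Plg (plasminogen) at 695 CPM per kb. At the other end were Masp1, a serine protease bound to mannose-binding lectin (10.7 CPM per kb), C2, a protease of the C3 convertase (5.46 CPM per kb), and F8, the cofactor of factor IX (1.31 CPM per kb). C3 stood far above F8, whose liver RNA comes largely from cells other than hepatocytes, so its bulk level also depends on the share of those cells. The length used is that of all annotated exons of a gene (9833 bases for Masp1), so the order per kilobase also depends on the annotation. Mice differed least for F2, C1ra and C4b, with 2.2-fold, 2.28-fold and 2.43-fold ranges between the lowest and highest of 40 mice, and most for C6, with 32.6-fold. That range of C6 rests on KO Pio mouse 13, at 17.7 CPM, and the next lowest value was 107 CPM, in a WT Pio mouse.

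As a share of all counts, the 20 complement genes took 1.92 to 2.36% (median 2.04%) in WT control mice and 1.38 to 1.61% (median 1.55%) in WT Pio mice. On HFD their share was 1.62 to 2.06% without and 1.39 to 1.69% with Pio in WT mice. These raw shares with and without Pio did not overlap on control diet in WT mice, and on HFD 3 of 5 HFD-Pio mice lay below all HFD mice. They leave out the scaling between libraries that enters the CPM values, and the separation on control diet does not hold on that scale. Control mouse 832 (share 2.36%) had a scaling factor of 1.33, and Pio mouse 842 (1.61%) one of 0.863. Divided by these factors, the share of mouse 832 lies below that of mouse 842, so the groups overlap. C3 is the largest part of the complement share, at means of 12576 CPM in WT control and 9409 CPM in WT Pio mice. In KO mice the shares were 1.64 to 2.41% on control diet, 0.71 to 1.74% with Pio, 1.63 to 3.81% on HFD and 1.73 to 2.02% on HFD-Pio, with mouse 13 lowest and mouse 9 highest. The 19 coagulation genes took 2.12 to 3.08% in WT control, 1.98 to 2.65% in WT Pio, 2.29 to 2.66% in WT HFD and 2.06 to 2.52% in WT HFD-Pio mice. Their shares in KO mice were 2.31 to 2.95%, 1.03 to 2.93%, 2.29 to 6.47% and 2.6 to 3.22% in the same order. The coagulation shares overlapped in each of the 8 comparisons of 2 groups.

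**Figure D1:**
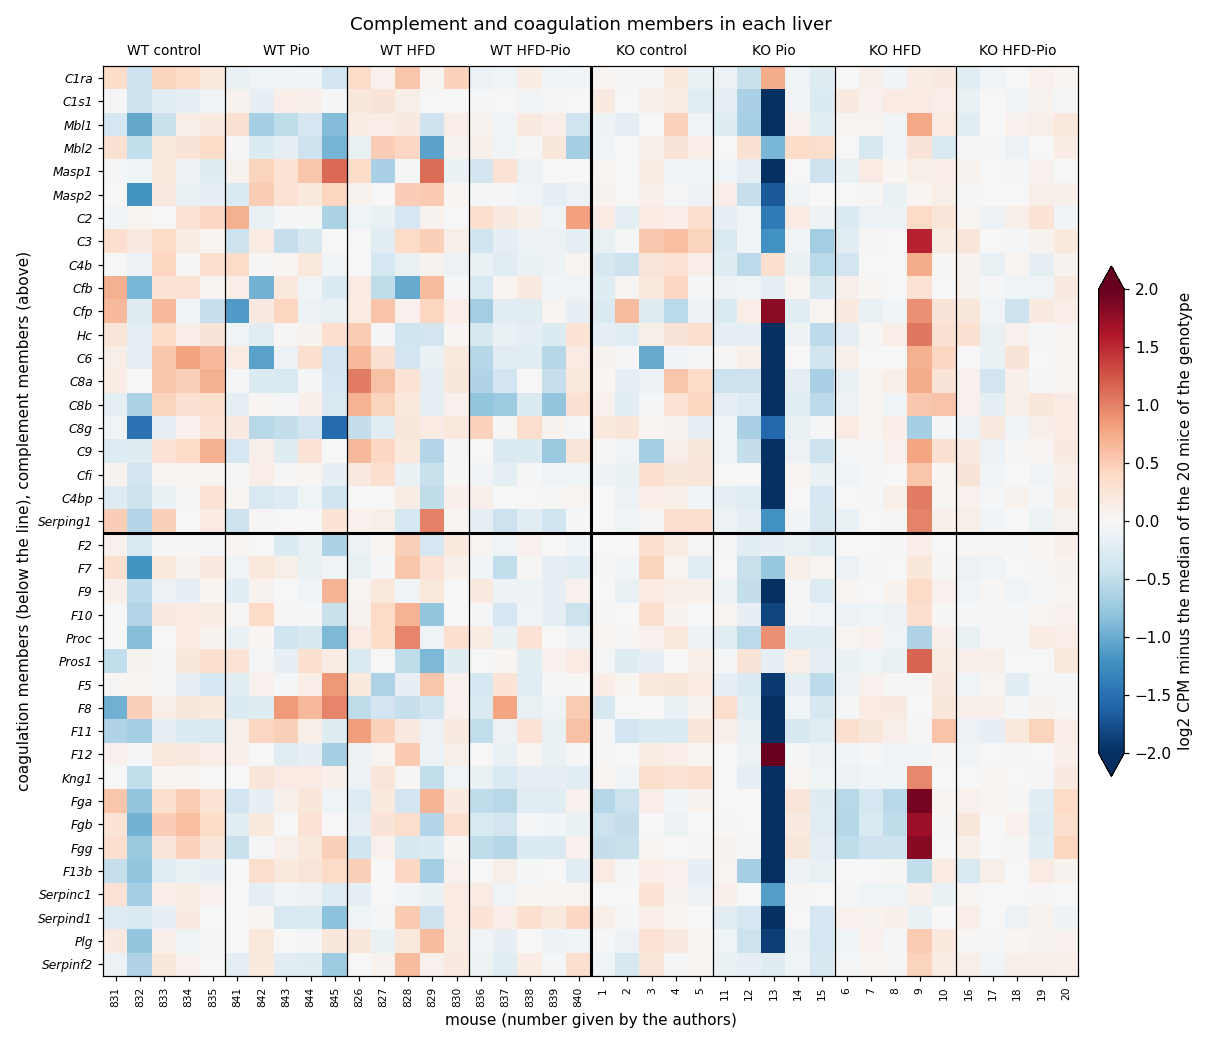
Level of each complement gene (above) and coagulation gene (below) in each of 40 mice, as log2 CPM minus the median of the 20 mice of the same genotype. Columns are mice by group. The column of KO Pio mouse 13 is low for 30 members, and that of KO HFD mouse 9 is high for 26.

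The gene-wise test was edgeR's quasi-likelihood F test on all 40 mice in 1 model of 8 groups, with Benjamini-Hochberg adjustment over all tested genes, and an adjusted p no higher than 0.05 counted as a call. By this test 0 of the 39 members were called in any of the 8 comparisons of 2 groups. Among all genes tested, the calls amounted to 3.91% for Pio on control diet, 1.08% for Pio on HFD, 1.31% for HFD without Pio and 1.22% for HFD with Pio in WT mice. In KO mice they amounted to 9.01%, 0.0155%, 0.185% and 4.96% in the same order. At an unadjusted p under 0.05 there were 6, 5, 4 and 3 members in WT mice and 11, 0, 0 and 9 in KO mice. The share of all genes under that unadjusted threshold is not given here or below. Counts of this kind therefore cannot be set against a background and do not show whether the members differ from other genes. The spread of mouse 13 enters every comparison through the shared dispersion, which was 0.085 with all 40 mice and 0.0506 without that mouse. Calls below are therefore given without KO Pio mouse 13 (39 mice, 12895 genes tested, a choice made after seeing the data), beside the values with all 40 mice. A limma fit with sample weights, which keeps every mouse but lowers the weight of divergent ones, is given as a further test, and so is edgeR on the 20 WT mice alone (12441 genes), which holds no KO mouse but estimates the spread from fewer mice. In that last fit most of the calls in WT mice below were not made, and its values stand beside them. The 8 comparisons share groups, so that a high or low group enters several of them.

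In WT mice on control diet, Pio was accompanied by lower C1ra and C8a and higher Masp1, Masp2, F11 and F13b, all by less than 0.7 log2 units. These 6 of 39 members were called without mouse 13, 4 complement genes (2 in each direction) and 2 coagulation genes (both higher), beside 15.6% of all genes, so that the share called among the members was near the background. With WT mice fitted alone only F13b was called, at 0.57 (SE 0.17, adjusted p = 0.0464), beside 7.52% of all genes, and C1ra, Masp1, Masp2, C8a and F11 gave adjusted p of 0.12, 0.142, 0.179, 0.0747 and 0.0705. Limma with sample weights called 14 members, beside 23.9% of all genes. The median log2 fold change was -0.18 over the 20 complement genes and 0.00 over the 19 coagulation genes, against -0.02 over all genes, with 4 of 20 and 10 of 19 above 0 (all 40 mice).

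Of the proteases that start the classical and lectin pathways, C1ra, a subunit of the C1 complex, was at 127, 196, 218, 218 and 230 CPM in the 5 WT control mice and at 131, 153, 159, 161 and 163 CPM in the 5 WT Pio mice. All Pio mice lay below 4 of the 5 control mice, and mouse 832, the lowest control, lay below them all. Its log2 fold change was -0.35 (SE 0.12, adjusted p = 0.0325) without mouse 13, so it fell, and -0.37 (SE 0.16, adjusted p = 0.199) with all mice. Masp1 stood at 72.6, 80.6, 81.0, 83.6 and 98.6 CPM without and 90.2, 105, 118, 127 and 190 CPM with Pio. A single control mouse reached into the Pio range, and Pio mouse 845 was far above the rest. Masp1 rose by 0.61 (SE 0.19, adjusted p = 0.0262) without mouse 13. Without the 4 mice 13, 832, 829 and 845 as well, its value was 0.39 (SE 0.14, adjusted p = 0.057), which was not called. Masp2, the partner protease that cleaves C4 and C2, was at 125, 256, 261, 291 and 328 CPM without and 236, 330, 354, 390 and 408 CPM with Pio. The 2 groups overlapped, and the lowest value belonged to mouse 832. Masp2 rose by 0.46 (SE 0.16, adjusted p = 0.0389) without mouse 13, but gave 0.27 (SE 0.13, adjusted p = 0.138) without mice 13 and 832, and its exons overlap those of Tardbp.

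Mannose-binding lectins, which recognise microbial sugars, had lower means with Pio that were not called. Mbl2 was at 193, 310, 324, 333 and 348 CPM in control and 142, 203, 224, 240 and 267 CPM in Pio mice, a log2 fold change of -0.48 (SE 0.19, adjusted p = 0.0905). The groups overlapped through control mouse 832, and without it and mouse 13 Mbl2 was called at -0.61 (SE 0.20, adjusted p = 0.0322). Mbl1 gave -0.10 (SE 0.20, adjusted p = 0.769) and C1s1, the other protease of C1, gave 0.22 (SE 0.09, adjusted p = 0.0945). C3 was at 11165, 11855, 12232, 13591 and 14038 CPM in control and 7779, 8016, 8587, 10686 and 11977 CPM in Pio mice. Only 1 Pio mouse reached the control range, yet the value of -0.41 (SE 0.23, adjusted p = 0.23) was not called. C2 and C4b, the other parts of the classical C3 convertase, gave -0.09 and -0.01, and Cfb and Cfp (factor B and properdin, of the alternative pathway) gave -0.29 and -0.24, none called (adjusted p 0.388 to 0.965).

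The terminal components, which build the membrane attack complex, had log2 fold changes of -0.58 to -0.13 for Pio on control diet, all below 0. C8a, the pore-forming alpha chain of C8, was at 521, 585, 731, 773 and 860 CPM in control and 418, 425, 436, 512 and 514 CPM in Pio mice. Every Pio mouse lay below every control mouse. In this comparison 2 of 39 members, C8a and F13b, had groups without overlap, against 7.53% of all genes in either direction. C8a fell, with a log2 fold change of -0.58 (SE 0.19, adjusted p = 0.0346), without mouse 13, and with all mice gave -0.59 (SE 0.29, adjusted p = 0.278). C6 was at 198, 245, 332, 355 and 393 CPM and 107, 174, 207, 252 and 281 CPM, with overlapping groups and a value of -0.57 (SE 0.22, adjusted p = 0.0782). Hc, the mouse C5, gave -0.13, C9 -0.24, C8b -0.17 and C8g -0.28, and none of them was called. The inhibitors Cfi (factor I, which cleaves C3b and C4b), C4bp (its cofactor) and Serping1 (the C1 inhibitor) gave 0.02, -0.09 and -0.16, with adjusted p of 0.643 to 0.923.

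Among coagulation genes on control diet, the contact factor F11, which activates factor IX, was at 31.0, 32.3, 39.7, 40.6 and 43.2 CPM in WT control and 41.5, 53.3, 53.5, 65.4 and 68.4 CPM in WT Pio mice. Pio mouse 845 alone fell inside the control range. F11 rose by 0.61 (SE 0.18, adjusted p = 0.0165) without mouse 13, against 0.60 (SE 0.31, adjusted p = 0.316) with all mice. F13b, the carrier subunit of the fibrin-crosslinking factor XIII, was at 84.6, 105, 123, 128 and 130 CPM without and 143, 166, 171, 183 and 188 CPM with Pio. All Pio mice lay above all control mice, and F13b rose by 0.59 (SE 0.15, adjusted p = 0.0084) without mouse 13, against 0.58 (SE 0.26, adjusted p = 0.227) with all mice. The vitamin K-dependent factors F2 (prothrombin), F7, F9 and F10 and the anticoagulants Proc (protein C) and Pros1 (protein S) gave log2 fold changes of -0.21 to 0.27, none called (adjusted p 0.15 to 0.956). The cofactors F5 and F8 gave 0.33 and 0.40, and F12 and Kng1 (the contact factor XII and kininogen) gave -0.27 and 0.23. Fga, Fgb and Fgg gave -0.27 to -0.05. The inhibitors Serpinc1 (antithrombin) and Serpind1 (heparin cofactor II) gave -0.13 and -0.14, and Plg and its inhibitor Serpinf2 gave 0.17 and -0.14. None of these was called.

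The GC content of genes moved with this comparison too, with a Spearman correlation of -0.29 between log2 fold change and GC content across 12942 genes and -0.3 across the 39 members (genes of the same libraries, not independent). Without mouse 13, F13b, F11, Masp1 and Masp2, which rose, have a GC content of 37.4%, 41%, 45.2% and 48.2%, and C8a and C1ra, which fell, have 43.3% and 48.1%. The 2 sets overlap in GC content. The part of GC content in these results was not tested.

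**Figure D2:**
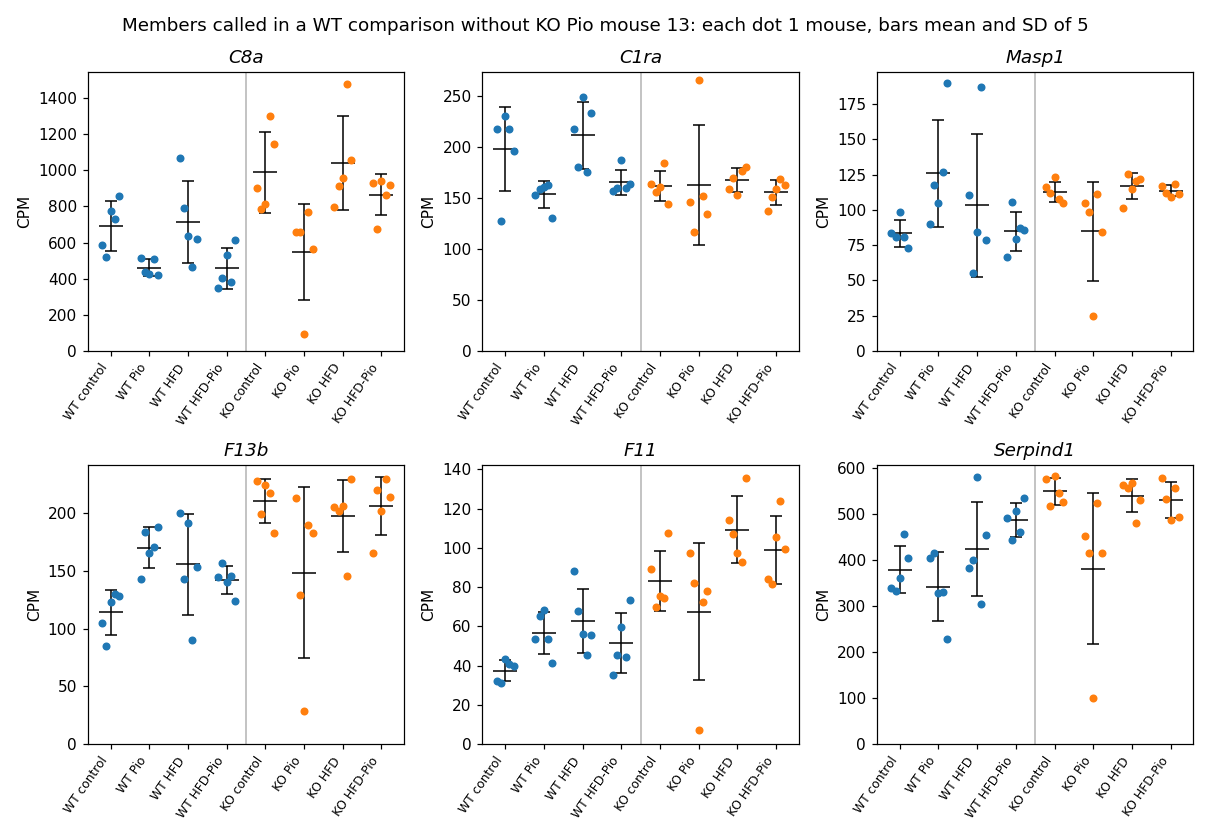
CPM of C8a, C1ra, Masp1, F13b, F11 and Serpind1 in each mouse of the 8 groups (points), with the mean and SD of 5 mice. These were called in a WT comparison without KO Pio mouse 13. All WT Pio mice lie below all WT control mice for C8a and above them for F13b.

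On HFD, Pio in WT mice was accompanied by lower C1ra, C8a and C8b. These 3 of 39 members, all complement genes, were called without mouse 13, beside 11.6% of all genes, a smaller share of members than of all genes. With WT mice fitted alone 0 members were called (7 at an unadjusted p under 0.05), beside 1.25% of all genes, and C1ra, C8a and C8b gave adjusted p of 0.202, 0.107 and 0.127. With all 40 mice, limma with sample weights called 4, beside 8.4%. The median log2 fold change with all 40 mice was -0.21 over complement and -0.14 over coagulation genes, against -0.02 over all genes, with 8 of 39 members above 0.

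C8b, the beta chain of C8, was at 194, 238, 259, 304 and 360 CPM on HFD and 129, 129, 134, 182 and 276 CPM on HFD-Pio. Of 5 HFD-Pio mice, 4 lay below every HFD mouse, and mouse 840 was inside the HFD range. C8b fell, with a log2 fold change of -0.66 (SE 0.20, adjusted p = 0.0294), without mouse 13. C8a was at 463, 618, 637, 791 and 1066 CPM on HFD and 348, 384, 404, 533 and 613 CPM on HFD-Pio, with groups that overlapped, and fell, at -0.63 (SE 0.19, adjusted p = 0.0294). C1ra was at 176, 180, 218, 234 and 250 CPM and 157, 160, 160, 163 and 187 CPM, overlapping through HFD-Pio mouse 838, and fell, at -0.34 (SE 0.12, adjusted p = 0.0498). With all 40 mice the same 3 genes gave -0.67 (SE 0.32, adjusted p = 0.298), -0.65 (SE 0.29, adjusted p = 0.271) and -0.35 (SE 0.16, adjusted p = 0.267).

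Both C8a and C1ra were called for Pio on each diet in WT mice, 2 comparisons that share no mice but share the fitted spread. The remaining terminal genes gave -0.09 (Hc), -0.41 (C6), -0.34 (C9) and 0.20 (C8g) on HFD. C3 was at 9193 to 15012 CPM on HFD and 8121 to 9922 CPM on HFD-Pio and gave -0.37 (SE 0.23, adjusted p = 0.291). Cfp and Masp2 were lower in every HFD-Pio mouse than in every HFD mouse, 2 of 39 members against 7.12% of all genes, but their values of -0.50 (SE 0.24, adjusted p = 0.162) and -0.32 (SE 0.16, adjusted p = 0.174) were not called. Serping1 was at 806, 1076, 1094, 1125 and 2083 CPM on HFD and 769, 787, 878, 905 and 1012 CPM on HFD-Pio. HFD mouse 829 was far above the rest, and the value of -0.49 (SE 0.20, adjusted p = 0.11) was not called. C1s1, Mbl1, Mbl2, Masp1, C2, C4b, Cfb, Cfi and C4bp gave -0.27 to 0.41.

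No coagulation gene was called for Pio on HFD without mouse 13. The lowest values were those of Fga, Proc, F10, F7 and Plg, at -0.38, -0.34, -0.34, -0.33 and -0.31, and the highest were those of F8 and Pros1, at 0.56 and 0.40 (adjusted p 0.101 to 0.459). Without the 4 mice 13, 832, 829 and 845, F10 and Proc were called, at -0.51 (SE 0.12, adjusted p = 0.00739) and -0.44 (SE 0.14, adjusted p = 0.0335). HFD mouse 829 had the lowest value of both genes in its group, F10 at 302 CPM against 519 to 845 and Proc at 613 CPM against 727 to 1281. The other 12 coagulation genes gave -0.27 to 0.22.

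HFD without Pio was accompanied by higher levels of 2 of 39 members in WT mice, F11 and C1s1 (without mouse 13), beside 6.55% of all genes. With WT mice fitted alone F11 was called, at 0.73 (SE 0.20, adjusted p = 0.0476), and C1s1 was not (adjusted p = 0.149), beside 2.77% of all genes. Limma with sample weights called F11 alone, beside 2.53%. F11 was at 31.0, 32.3, 39.7, 40.6 and 43.2 CPM on control diet and 45.4, 55.6, 55.9, 67.8 and 88.3 CPM on HFD. All HFD mice lay above all control mice, and F11 rose by 0.73 (SE 0.18, adjusted p = 0.0112) without mouse 13, against 0.75 (SE 0.31, adjusted p = 0.261) with all mice. C1s1 was at 140, 163, 166, 180 and 186 CPM on control diet and 190, 191, 206, 222 and 226 CPM on HFD, again without overlap (2 of 39 members, against 3.05% of all genes), and rose by 0.30 (SE 0.09, adjusted p = 0.0428) without mouse 13, against 0.31 (SE 0.19, adjusted p = 0.528) with all mice. Without the 4 mice it gave 0.28 (SE 0.10, adjusted p = 0.103). The exons of C1s1 overlap those of Gm16567, and it has a close paralog in C1s2, so that its level is uncertain.

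Other members of the contact and fibrin steps gave 0.44 (F13b), 0.30 (Plg), -0.02 (F12) and 0.00 (Kng1) for HFD without Pio. Proc, the zymogen of the anticoagulant protease activated protein C, was at 359, 649, 651, 681 and 725 CPM on control diet and 613, 727, 815, 842 and 1281 CPM on HFD. The groups overlapped through mouse 829, and Proc gave 0.47 (SE 0.17, adjusted p = 0.0856). Its cofactor Pros1 was at 27.2, 37.3, 40.4, 44.7 and 48.2 CPM and 20.5, 27.0, 31.4, 32.2 and 38.0 CPM and gave -0.43 (SE 0.19, adjusted p = 0.161). F2, F7, F9, F10, F5, F8, Fga, Fgb, Fgg, Serpinc1, Serpind1 and Serpinf2 gave -0.42 to 0.25. The 19 complement genes other than C1s1 gave -0.28 to 0.43, with Masp2 highest (adjusted p = 0.0888) and C6 lowest (adjusted p = 0.466).

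With Pio in the diet, HFD was accompanied in WT mice by higher Serpind1 and lower Masp1. These 2 of 39 members were called without mouse 13, beside 8.68% of all genes, and limma with sample weights called 9, beside 22.7%. With WT mice fitted alone 0 members were called (4 at an unadjusted p under 0.05), beside 1.63% of all genes, with adjusted p of 0.119 for Serpind1 and 0.221 for Masp1. Serpind1, a thrombin inhibitor, was at 229, 329, 331, 404 and 416 CPM with Pio on control diet and 444, 461, 491, 507 and 536 CPM on HFD-Pio. All HFD-Pio mice lay above all Pio mice, and Serpind1 rose by 0.51 (SE 0.13, adjusted p = 0.0154) without mouse 13, against 0.51 (SE 0.22, adjusted p = 0.273) with all mice. Masp1 was at 90.2, 105, 118, 127 and 190 CPM and 66.9, 79.1, 85.4, 86.8 and 105 CPM, with overlap, and fell without mouse 13, at -0.58 (SE 0.19, adjusted p = 0.0499). With all mice it gave -0.57 (SE 0.25, adjusted p = 0.281) and without the 4 mice -0.37 (SE 0.13, adjusted p = 0.0863). C8g, the lipocalin-like chain of C8, was at 84.9, 169, 178, 190 and 279 CPM and 243, 251, 258, 317 and 340 CPM and gave 0.64 (SE 0.23, adjusted p = 0.0672), not called. Kng1 was lower in all HFD-Pio mice than in all Pio mice, and with Serpind1 made 2 of 39 members without overlap, against 6.49% of all genes. Its log2 fold change was -0.35 (adjusted p = 0.142). C3, Hc, C9, Fga, F2 and Plg gave -0.02, -0.16, -0.16, -0.23, 0.18 and -0.18.

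**Figure D3:**
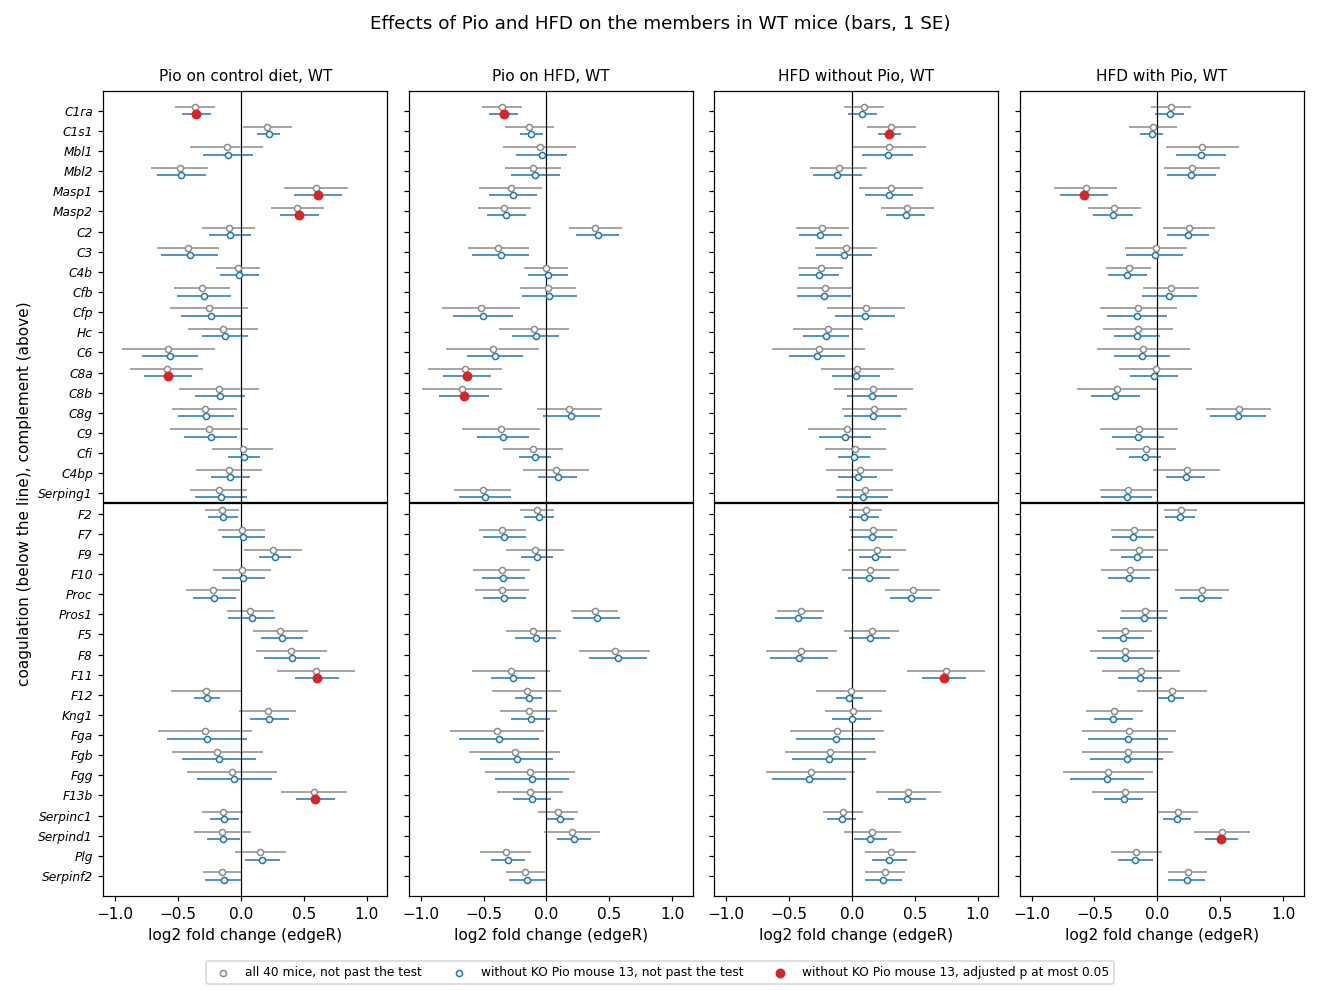
Log2 fold change (edgeR, bars 1 SE) of the 39 members in the 4 comparisons within WT mice. Grey open points use all 40 mice, blue open points leave out KO Pio mouse 13, and red points are those called without it. The 2 estimates lie close together and the bars shorten without mouse 13.

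The effect of Pio on the 2 diets was compared directly in WT mice as the difference between the log2 fold changes. With all 40 mice 0 members were called by edgeR's quasi-likelihood test, beside 0.0773% of all genes, with 2 members at an unadjusted p under 0.05. Limma with sample weights called 4, with the share of all genes in that fit not given here. WT mice fitted alone called 0 (5 at an unadjusted p under 0.05), beside 0.00804% of all genes. Without mouse 13, 4 of 39 members were called in the negative direction, beside 5.25% of all genes. They were F11 at -0.87 (SE 0.25, adjusted p = 0.0361), Masp2 at -0.78 (SE 0.22, adjusted p = 0.0349), Masp1 at -0.88 (SE 0.27, adjusted p = 0.0498) and F13b at -0.71 (SE 0.22, adjusted p = 0.05). For each, Pio was accompanied by a higher level on control diet and a lower mean on HFD, where the change itself was not called. Without the 4 mice 13, 832, 829 and 845, F11 and F13b were called (adjusted p = 0.0246 and 0.0309), whereas Masp1 gave -0.35 (SE 0.19, adjusted p = 0.349) and Masp2 gave -0.48 (SE 0.17, adjusted p = 0.13). With all 40 mice the adjusted p of F11, Masp2, Masp1 and F13b was 0.423, 0.262, 0.303 and 0.442. In KO mice the same difference called 0 members with and without mouse 13, beside 0% and 0% of all genes, with 0 members at an unadjusted p under 0.05 in either and 0 by limma with sample weights.

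In KO mice on control diet, Pio was accompanied by lower means of most members, none of them called with or without mouse 13. With all 40 mice 34 of 39 members had a log2 fold change below 0 and the median was -0.36. Without mouse 13, 29 were below 0 and the median was -0.19, with 0.512% of all genes called and 6 members at an unadjusted p under 0.05. Limma with sample weights called 8 members, all lower (C1s1, C3, C8a, F2, Proc, F5, Serpind1 and Plg), beside 9.4%. DESeq2 with all mice called 4 (C8a, C3, F5 and C1s1), with the share of all genes in that fit not given here. Across 12942 genes the log2 fold change had a Spearman correlation with GC content of 0.47 with all mice and 0.067 without mouse 13, and its part in the members' values was not tested.

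F5, the cofactor of factor X in the prothrombinase complex, was at 954, 1035, 1043, 1073 and 1091 CPM in KO control and 246, 645, 758, 814 and 834 CPM in KO Pio mice. The lowest value was that of mouse 13, and without it all Pio mice still lay below all control mice. F5 gave -0.66 (SE 0.22, adjusted p = 0.0505) with all mice and -0.43 (SE 0.18, adjusted p = 0.335) without mouse 13. F2 was at 1595, 1626, 1636, 1780 and 2004 CPM and 1373, 1397, 1444, 1447 and 1560 CPM, also without overlap, and gave -0.24 (SE 0.13, adjusted p = 0.527). C8a was at 784, 814, 902, 1148 and 1299 CPM in control and 93.6, 564, 656, 660 and 768 CPM in Pio mice, without overlap, and gave -0.85 (SE 0.29, adjusted p = 0.057) with all mice and -0.56 (SE 0.20, adjusted p = 0.239) without mouse 13. These 3 of 39 members were without overlap, against 3.7% of all genes. The exons of F5 overlap those of Gm16548.

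C3 was at 7794, 8388, 11781, 12543 and 13114 CPM in KO control and 3709, 5343, 7087, 8260 and 8296 CPM in KO Pio mice, with overlap, and gave -0.55 (SE 0.24, adjusted p = 0.391) without mouse 13. C1s1 was at 205, 237, 258, 265 and 271 CPM and 48.2, 153, 198, 210 and 228 CPM and gave -0.30 (SE 0.10, adjusted p = 0.154). Plg gave -0.30 (SE 0.15, adjusted p = 0.472), from 2419 to 3218 CPM in control mice to 713 to 2496 CPM in Pio mice, of which mouse 13 was the lowest. Proc, at 454, 495, 510, 520 and 564 CPM and 340, 419, 422, 424 and 919 CPM, was lower in every Pio mouse but mouse 13, which was the highest of all 10. The sign of F12 rested on that mouse: it was at 512, 518, 524, 557 and 567 CPM in control and 468, 471, 494, 509 and 2473 CPM in Pio mice, and gave 0.72 (SE 0.28, adjusted p = 0.0862) with mouse 13 and -0.12 (SE 0.11, adjusted p = 0.828) without it.

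The other complement genes in KO mice, without mouse 13, gave -0.40 to 0.19 for Pio on control diet, with C8b lowest and Mbl2 highest. Hc gave -0.30, C9 -0.20, Cfi -0.14 and Serping1 -0.28, while Mbl2 gave 0.19 and C6 0.13. The other coagulation genes gave -0.26 to 0.21. Fibrinogen chains were highest among them, at 0.17 (Fga), 0.21 (Fgb) and 0.20 (Fgg), and Serpind1 was lowest at -0.26. F11 and F13b, which rose with Pio in WT mice, gave 0.01 and -0.22 in KO mice. None of these values was called.

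Pio on HFD called 0 members in KO mice with all 40 mice and 0 without mouse 13, beside 0% of all genes in the second fit. Weighted limma also called 0 (beside 0%), and 0 members had an unadjusted p under 0.05 in edgeR's test with or without mouse 13. The log2 fold changes without mouse 13 spanned -0.38 to 0.09 over complement genes and -0.42 to 0.08 over coagulation genes. C1s1 was lower in every HFD-Pio mouse (218 to 251 CPM) than in every HFD mouse (253 to 270 CPM), at -0.18 with an adjusted p of 1, the only member of 39 without overlap, against 0.61% of all genes. C8a was at 797 to 1477 CPM on HFD and 675 to 944 CPM on HFD-Pio, and C1ra at 153 to 180 CPM and 137 to 169 CPM, and both pairs of groups overlapped.

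HFD without Pio called 0 members in KO mice with edgeR, in either fit, with 0 members at an unadjusted p under 0.05 with all mice and 4 without mouse 13, when 0.388% of all genes were called. No member had groups without overlap, against 3.04% of all genes. The weighted limma fit called F11, at 0.46 (SE 0.13, adjusted p = 0.0352), beside 4.19%. F11 was at 69.8, 74.6, 75.3, 89.2 and 108 CPM on control diet and 92.8, 97.4, 107, 114 and 136 CPM on HFD, with overlap, and in edgeR gave 0.41 (SE 0.17, adjusted p = 0.49) without mouse 13. HFD with Pio in KO mice called 0 members in both fits, beside 0.0931% of all genes without mouse 13, and limma with sample weights called 0, beside 2.39%. Without mouse 13, 37 of 39 members had a log2 fold change above 0 (median 0.18, against -0.000813 over all genes), and 1 had an unadjusted p under 0.05. C3 was higher in every HFD-Pio mouse (8437, 8623, 9088, 9850 and 10239 CPM) than in every Pio mouse (3709, 5343, 7087, 8260 and 8296 CPM), at 0.34 (SE 0.24, adjusted p = 1). F2, Plg and Serpinf2 were also higher in all HFD-Pio than in all Pio mice, at 0.18, 0.26 and 0.24 without mouse 13, which with C3 made 4 of 39 members without overlap, against 2.43% of all genes. The value of F12 again turned on mouse 13, at -0.79 with it and 0.07 without.

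**Figure D4:**
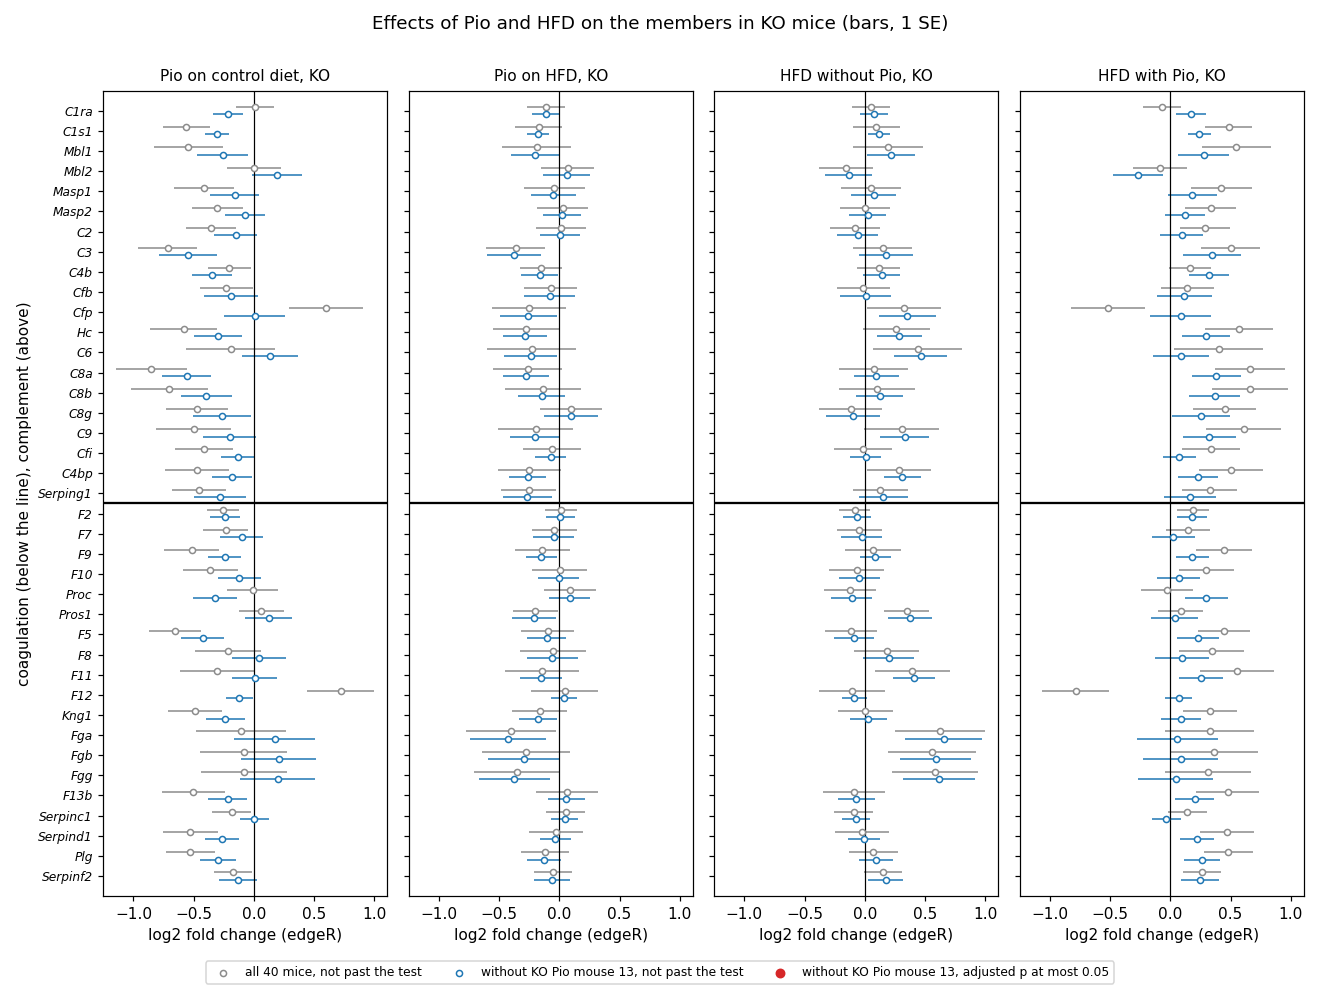
Log2 fold change (edgeR, bars 1 SE) of the 39 members in the 4 comparisons within KO mice, with all 40 mice (grey) and without KO Pio mouse 13 (blue). No point is red, since no member was called. The 2 estimates part most for F12 and Cfp in the comparisons that contain the KO Pio group.

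The fibrinogen chains, which are assembled in the hepatocyte into 1 protein, lie side by side on chromosome 3 and were together high in mouse 9 and low in mice 832 and 13. Fga was at 3931, 3970, 4561, 6044 and 21883 CPM in KO HFD mice, Fgb at 3661, 3828, 4367, 5478 and 17668 CPM and Fgg at 2532, 2697, 2703, 3600 and 12772 CPM. In each, the highest value was that of mouse 9, and the other 4 mice lay within or close to the range of KO control mice. C3 in the same group was at 7358, 8621, 8779, 9566 and 25108 CPM, again highest in mouse 9. In that mouse Saa2 (serum amyloid A) was at 13992 CPM against 10.02 to 486.5 CPM in the other 4, Orm2 (orosomucoid) at 2790 CPM against 6.61 to 93.1 CPM, and the 3 neutrophil markers summed to 257 CPM against a group median of 5.66 CPM. Their part in the fibrinogen values was not tested. For HFD without Pio in KO mice, Fga gave 0.62 (SE 0.37, adjusted p = 1) with all mice and -0.19 (SE 0.30, adjusted p = 1) without mouse 9. Fgb gave 0.56 and -0.14, Fgg 0.58 and -0.17, and C3 0.15 and -0.33. The sign of all 4 genes thus turned with this mouse, and so it did for Pio on HFD, where Fga gave -0.40 with it and 0.40 without.

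WT control mouse 832 showed the reverse, with Fga at 2648 CPM against 5475 to 6604, Fgb at 2968 CPM against 6910 to 8641 and Fgg at 1722 CPM against 3397 to 3979. The proportion of the chains differed between the tables. Per kilobase, Fgg stood at group medians of 0.834 to 0.92 of Fga in WT and 0.857 to 0.893 in KO mice. Fgb stood at 1.06 to 1.13 of Fga in WT and 0.714 to 0.743 in KO mice, and genotype and table cannot be told apart. The WT HFD mouse 829 departed from its table in both proportions, at 0.415 for Fgb and 0.473 for Fgg. A single proportion also lay far from the medians in WT HFD mouse 828 (1.68 for Fgb) and in WT Pio mouse 845 (1.36 for Fgg). Levels of some other members also lay apart between the tables, higher in that of KO mice, and were not tested. Cfb was at 9.44 to 30.8 CPM in WT and 35.8 to 59.6 CPM in KO mice, Pros1 at 20.5 to 48.3 CPM and 52.5 to 140 CPM, and F8 at 3.51 to 13.5 CPM and, apart from mouse 13 (7.33 CPM), 25.7 to 41 CPM.

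The sequence upstream of the 3 chains is shown because their levels moved together in mice 9, 832 and 13. Such a joint shift was not particular to the chains. In mouse 832, 31 members lay below all others of its group, and in mouse 13, 30 members did. In mouse 9, 26 members lay above all others of its group. Whether the chains share a control was not tested. The stretches below end just before the start of the gene in RefSeq (Fgb and Fgg) or before the earlier start in GENCODE M21 (Fga, which ends 77 bases before its RefSeq start). They are from RefSeq on GRCm38.p6, read 5′ to 3′ on the strand of the gene: Fga at chr3:83026003-83026075 (plus strand), Fgb at chr3:83049864-83050013 (minus strand) and Fgg at chr3:83007574-83007723 (plus strand). Capitals mark a C/EBP motif (TTGCNNAA, on either strand) or the core of an interleukin 6 response element (CTGGGAA, on either strand), both linked in textbooks to acute phase genes.
Fga: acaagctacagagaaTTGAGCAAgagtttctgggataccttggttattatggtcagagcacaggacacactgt
Fgb: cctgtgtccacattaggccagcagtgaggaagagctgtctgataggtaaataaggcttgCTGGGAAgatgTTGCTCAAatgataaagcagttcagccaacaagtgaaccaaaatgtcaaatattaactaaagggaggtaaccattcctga
Fgg: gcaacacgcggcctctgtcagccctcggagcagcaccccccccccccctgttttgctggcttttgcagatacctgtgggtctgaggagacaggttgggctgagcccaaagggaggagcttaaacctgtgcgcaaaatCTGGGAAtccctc
Fgb holds both motifs close together, at -91 to -85 and -80 to -73 from the RefSeq start, whereas the stretch of Fga holds the C/EBP motif alone and that of Fgg CTGGGAA alone.

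Promoters of 300 bases (250 before and 50 after the start) were found for 30 of the 39 members. The C/EBP motif was in 9 of them (30%), among them C1s1, C3, C9, F11 and Serpinc1, and in 12.2% of all genes with a promoter. The interleukin 6 element was in 6 (20%, C1ra, C6, F9, Fgb, Fgg and Masp2) and in 12.7% of all genes. A site for the hepatocyte factor HNF1 (GTTAATNAT, on either strand) was in 4 (13.3%, C4bp, F13b, Fga and Hc) and in 0.94% of all genes. A perfect DR1 element (AGGTCA repeated after a single base), which PPARγ with RXR can bind, was in 0 of the 30 and in 0.0481% of all genes. So strict a match was in only 13 of all 32851 promoters, so its absence among 30 members says little. Looser forms were not searched. These matches describe letters in a window and are not binding data.

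**Figure D5:**
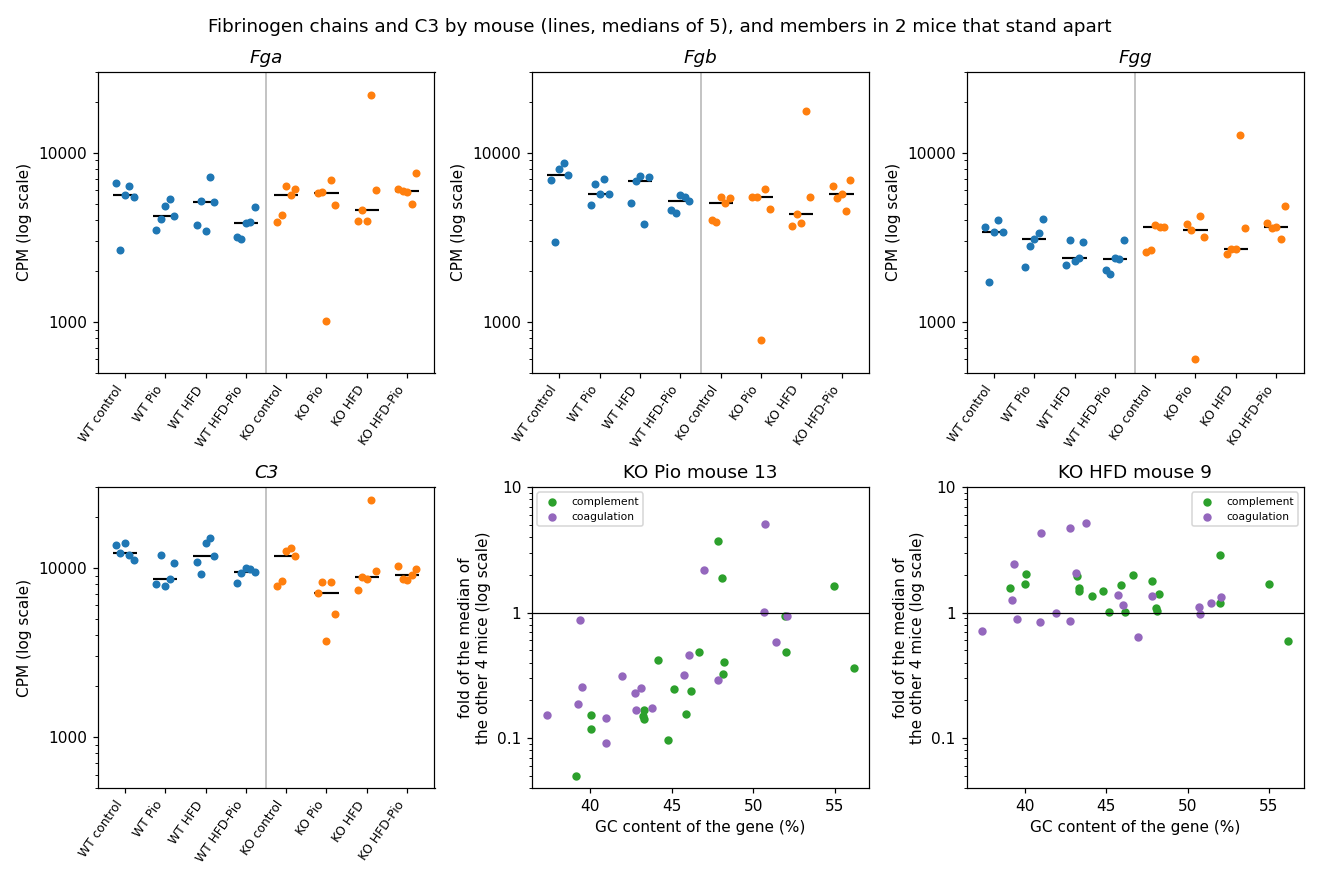
CPM on a log scale of Fga, Fgb, Fgg and C3 in each mouse, with group medians as lines, and the level of each member in KO Pio mouse 13 and KO HFD mouse 9 as fold of the median of the other 4 mice of the group, against the GC content of the gene. Mouse 9 is highest for all 4 genes shown by mouse. In mouse 13 most members lie below 1, and F12, at 50.8% GC, is highest.

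Differences between the genotypes in the effect of Pio were tested as interactions. On control diet 1 member was called with all 40 mice, beside 7.87% of all genes. This was F5, at -0.97 (SE 0.31, adjusted p = 0.0455), from a higher mean with Pio in WT mice (553, 614, 684, 714 and 718 CPM without and 602, 681, 743, 766 and 1285 CPM with Pio) and a lower one in KO mice. Pio mouse 845 was the highest of these WT mice, and without mice 13, 832, 829 and 845 F5 gave -0.58 (SE 0.18, adjusted p = 0.0547). Without mouse 13 F5 gave -0.75 (SE 0.24, adjusted p = 0.0556), and C1s1 and F13b were called in its place (2 of 39, beside 5.78% of all genes), at -0.53 (SE 0.13, adjusted p = 0.0161) and -0.81 (SE 0.23, adjusted p = 0.0281). With sample weights limma called 6, and DESeq2 called 4. The shares of all genes called in these 2 fits are not given here, so the counts cannot be set against a background. The difference had a Spearman correlation with GC content of 0.51 across all genes with all mice and 0.28 without mouse 13, and its part in these values was not tested. C8a, lower with Pio in both genotypes, gave a difference of 0.02 (SE 0.28, adjusted p = 0.98) without mouse 13, and Masp1 gave -0.77 (SE 0.28, adjusted p = 0.0961).

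The other interactions called 0 members with all 40 mice and 0 without mouse 13. For Pio on HFD between KO and WT mice the calls among all genes were 0.0927% and 0.163%, with 1 member at an unadjusted p under 0.05 in each fit. For HFD without Pio they were 0.0618% and 1.05%, with 1 and 5 members at an unadjusted p under 0.05. For HFD with Pio they were 0.0155% and 0.00775%, with 7 and 8 members. The limma test with sample weights called 1, 0 and 5 members in these 3, with the shares of all genes not given here. For F11, which rose with Pio on control diet in WT mice alone, the difference between genotypes was -0.60 (SE 0.26, adjusted p = 0.169) without mouse 13 and was not called.

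Other genes of the pathways, from lists of 25 complement and 33 coagulation genes, add 23 and 30 tested genes. Of the complement list, Cfd (complement factor D, or adipsin, the protease that cleaves factor B) was called with all 40 mice, for Pio in WT mice on both diets. Its group ranges were 0.447 to 3.82 CPM in WT control and 40.5 to 402 CPM in WT Pio mice, and 3.09 to 37.8 CPM in WT HFD and 83.8 to 471 CPM in WT HFD-Pio mice, with no overlap on either diet. Cfd rose by 6.88 (SE 0.87, adjusted p = 2.43e-06) on control diet and 4.67 (SE 0.77, adjusted p = 0.000639) on HFD. Without mouse 13 Cfd was also called higher for HFD without Pio in WT mice, at 2.64 (SE 0.70, adjusted p = 0.0195, edgeR), beside 6.55% of all genes. In KO mice it was at 0 to 2.76 CPM. Cfd is also an adipocyte gene, and the sum of the adipocyte markers Adipoq, Plin1 and Lep was 0 to 0.253 CPM in WT mice. Without mouse 13, C1qa and C1qc (subunits of C1q, made by macrophages) fell and Cd59a (an inhibitor of the membrane attack complex) rose with Pio on control diet, at -0.69, -0.63 and 0.59. Vtn (vitronectin, an inhibitor of the same complex) fell with Pio on both diets, by 0.47 and 0.51 on the log2 scale. On control diet 2 of the 23 genes were called higher and 3 lower without mouse 13, against 15.6% of all genes. The 6 Kupffer and macrophage markers summed to 178 to 429 CPM in WT control and 109 to 318 CPM in WT Pio mice, and their part in the C1q values was not tested.

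Of the other coagulation list, 0 genes were called with all 40 mice in WT mice (edgeR's quasi-likelihood test), beside 1.08 to 3.91% of all genes. Without mouse 13 Serpina1e fell with Pio on control diet (log2 fold change -1.53), beside 15.6% of all genes called. Serpina1a and Serpina1c fell with Pio on HFD (-0.53 and -0.90), beside 11.6%. Proz (protein Z, a cofactor of a factor X inhibitor) rose on HFD without Pio (0.46), beside 6.55%. The Serpina1 genes are near-identical copies whose reads can be split between them, so each value is uncertain. In KO mice with all mice F3 (tissue factor) and, of the complement list, C1qc rose and Hrg (histidine-rich glycoprotein) fell with Pio on control diet, at 1.17, 1.11 and -0.93, beside 9.01% of all genes called. None of the 3 was called without mouse 13.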

How the data were processed

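Liver RNA was sequenced in 40 mice, and the authors aligned reads with STAR 2.0.4b to GRCm38 and counted them per gene with featureCounts 1.4.5. The deposited values are raw read counts, in a table for each genotype, with the GC percent of each gene beside them in the deposited tables. Whether counting used strand is not given in the sources used here. The paralogs C4b and C4a, C1ra and C1rb, and C1s1 and C1s2 may share reads, and exons of C1s1, C2, Cfb, F5, Fgg, Hc, Masp2, Plg and Serpinc1 overlap other genes, so their levels are uncertain.

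The tables were joined on gene identifiers (40594 genes), repeated lines (598 KO, 574 WT) held the same values and were merged, and 355 rRNA genes were removed. Genes were kept when 5 or more of the 40 mice reached 1 CPM. Counts were tested with edgeR 4.0.16 (R 4.3.3; TMM scaling, robust quasi-likelihood F test, 8 group means), with Benjamini-Hochberg adjustment over all genes and a threshold of 0.05. Voom with sample weights in limma 3.58.1, the approach of the study, and DESeq2 1.42.0 were alternatives. The scripts were tested on simulated data. Depth was 15788242 to 49857017 counts. Positions are from GENCODE M21 and promoters from RefSeq (GRCm38.p6).

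The labels give separate mice but no batch. The members, the gene lists and the tests were chosen with earlier results of these data known. Genes named in the text were the members called (up to 3 in each direction per comparison), a set fixed by role, F8 and Cfp, and all called in an interaction, and others complete each role. Alternatives were other scaling, no filter, each genotype alone and each mouse left out, and, added after seeing the data, fits without groups of divergent mice.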

Additional observations from a re-analysis of the deposited data

Results flagged for a closer look

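Of 312 combinations of a member and a group of 5 mice, 70 had 1 mouse far from the other 4 by Dixon's test at the 95% level, where chance gives about 1 in 20. In 44 the mouse was KO Pio mouse 13 or KO HFD mouse 9, and 26 were in other mice. All values below are CPM.

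KO Pio mouse 13 was far from its group for 29 members. It was the lowest mouse for C1s1 (48.2), Mbl1 (16.8), Mbl2 (130), Masp1 (24.9), C2 (9.04), Hc (179), C6 (17.7), C8a (93.6), C8b (27.3), C9 (67.5), Cfi (109), C4bp (67.5), Serping1 (427), F9 (33.7), F10 (105), F5 (246), F8 (7.33), F11 (7.25), Kng1 (339), Fga (1013), Fgb (786), Fgg (603), F13b (28.2), Serpinc1 (812), Serpind1 (99.4) and Plg (713). It was the highest for Cfp (103), Proc (919) and F12 (2473).

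KO HFD mouse 9 was far from its group for 15 members, the highest for Mbl1 (217), C3 (25108), Cfi (957), C4bp (1057), Serping1 (1962), F2 (1764), F9 (266), Pros1 (140), Kng1 (2735), Fga (21883), Fgb (17668) and Fgg (12772) and the lowest for C8g (161), Proc (324) and F13b (146). WT control mouse 832 was the lowest for 15 members, which were C1ra (127), Mbl2 (193), Masp2 (125), C8g (88.5), Cfi (432), F2 (1756), F7 (52.9), F10 (348), Proc (359), Kng1 (965), Fga (2648), Fgb (2968), Fgg (1722), Serpinc1 (1104) and Plg (1418).

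Single members stood apart in other mice. WT HFD-Pio mouse 838 was the highest for C1ra (187). WT HFD-Pio mouse 837 was the lowest for Cfi (486). WT Pio mouse 845 was the lowest for C1ra (131). WT HFD mouse 829 was the lowest for Mbl1 (71.3) and C4bp (333). WT HFD mouse 830 was the highest for F8 (7.26). WT control mouse 831 was the lowest for F8 (3.51). KO control mouse 3 was the highest for F10 (471) and the lowest for C6 (176). KO HFD-Pio mouse 17 was the lowest for C8a (675) and Serpinf2 (820).

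F5 was the member whose change with Pio on control diet differed between KO and WT mice with all 40 mice, by -0.969 on the log2 scale (edgeR's quasi-likelihood test, adjusted p = 0.0455, with F5 lower in 5 of 5 KO Pio mice than in any KO control mouse). Without mouse 13 its adjusted p was 0.0556.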

How the results depend on the processing

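With all 40 mice edgeR called 0 members in each of the 8 comparisons of 2 groups, and these counts moved under some settings. The share of all genes called is not given for most of these settings. The counts alone therefore do not show whether the members differ from other genes. Limma with sample weights called 14, 4, 1 and 9 members for Pio on control diet, Pio on HFD, HFD without Pio and HFD with Pio in WT mice, and in KO mice 8 for Pio on control diet and 1 for HFD without Pio. Each genotype fitted alone gave 1 for Pio on control diet and 1 for HFD without Pio in WT mice. Without mice 13 and 9 the WT counts were 6, 4, 3 and 3, without mice 13 and 832 they were 8, 3, 1 and 3, and without mice 13, 832, 829 and 845 they were 5, 5, 2 and 1. For Pio on control diet in KO mice DESeq2 gave 4, size factors of the DESeq2 kind in edgeR gave 1, and KO mice alone without mouse 13 gave 1.

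Leaving out each mouse in turn gave 0 to 6, 0 to 3, 0 to 2 and 0 to 2 in WT mice, all through mouse 13. It gave 0 to 7 for Pio on control diet in KO mice (7 without mouse 14, 5 without 11, 4 without 12, 2 without 15, and 1 without each of 827, 829, 832, 841, 845 and 9), and 0 to 2 for HFD with Pio in KO mice (2 without mouse 14, 1 without each of 11, 12 and 15).

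The difference of the Pio effects between diets in WT mice gave 4 with sample weights, 4 without mice 13 and 9, 1 without 13 and 832, 2 without the 4 mice, and 0 to 4 leaving out each mouse (4 without mouse 13). The difference between genotypes on control diet (1 with all mice) gave 4 in DESeq2, 6 with sample weights, 0 without weights in limma, 0 with no filter, 2, 3 and 3 without the same sets of mice, and 0 to 6 leaving out each mouse, with a change for 28 of 40 mice (6 without mouse 11, 5 without 14, 4 without 15, 3 without 829, 2 without each of 841, 12 and 13, and 0 without each of 831, 832, 833, 834, 835, 839, 842, 844, 845, 1, 2, 3, 4, 5, 6, 8, 10, 17, 18, 19 and 20). Sample weights gave 1 member for Pio on HFD and 5 for HFD with Pio between genotypes.

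Signs turned for F12, C3 and fibrinogen. F12 for Pio on control diet in KO mice (0.72) was -0.12 with weights, -0.12 without 13 and 9, -0.13 in KO mice alone, -0.15 without 13 and 832 and -0.14 without the 4 mice, and -0.12 to 0.92 leaving out each mouse. For HFD with Pio F12 (-0.79) was 0.063, 0.070, 0.070, 0.075 and 0.075, and -0.97 to 0.070, with the change of sign without mouse 13 in both. Between genotypes F12 was 0.062 without the 4 mice. For Pio on HFD in KO mice Fga was 0.36 with weights, 0.40 without 13 and 9, and -0.58 to 0.40 leaving out each mouse. In the same order Fgb was 0.36, 0.42 and -0.44 to 0.42 (0.012 in limma without weights), Fgg 0.34, 0.40 and -0.52 to 0.40, and C3 0.050, 0.11 and -0.49 to 0.11. For HFD without Pio in KO mice Fga was -0.073, -0.17 and -0.19 to 0.80, Fgb -0.054, -0.12 and -0.14 to 0.72, Fgg -0.076, -0.16 and -0.17 to 0.75, and C3 -0.19, -0.31 and -0.33 to 0.28. The sign of these 4 genes turned without mouse 9. The cause was not tested. Of the values of single genes, 3367 kept their direction and side of the threshold, 157 passed it, 26 lost it and 38 changed sign. No paired analysis was possible because the groups share no mouse numbers.

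With 5 mice a group, the common dispersion was 0.085 with all mice and 0.0506 without mouse 13. F8 was the member with the lowest level per length.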
